A study of Homo sapiens with 6 samples.

Results

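DHA was compared with Vector in HMLE cells to which no inducer of an epithelial-mesenchymal transition (EMT) had been given. The comparison rests on the array titled DHA and the array titled Vector, 2 of the 6 arrays in the series, and every difference is the log2 value on the DHA array minus the log2 value on the Vector array. HMLE is an immortalized human mammary epithelial cell line, and DHA is docosahexaenoic acid, an omega-3 polyunsaturated fatty acid that cells incorporate into membrane phospholipids. The DHA cells received 20 µM DHA and no TGF-β, and the Vector cells received neither, with the inducer given as none for both. The other 4 arrays were Snail+DHA (Snail expression with 20 µM DHA), Snail (Snail expression alone), TGF-β+DHA (1 ng/mL TGF-β with 20 µM DHA) and TGF-β (1 ng/mL TGF-β alone), the cells that the study induced to an EMT. The TGF-β dose is the one on the labels, and the study's culture methods give a higher one. These 4 arrays were used here to show where each gene of the uninduced pair stood among all 6 arrays.

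Each condition had 1 array, so no spread between replicates exists, no p-value or error can be given, and a difference compares 2 RNA samples. The study speaks of a vehicle control where the labels have Vector, but neither says whether those cells received the albumin in which DHA was supplied, or whether the DHA cells carried the empty vector, and how long DHA had been given before RNA was taken is not stated in the sources used here. In a bulk sample, fewer cells of a kind and less RNA per cell cannot be told apart. All 6 arrays were on 1 BeadChip. Before normalization, 40.1% of probes were above background on the DHA array and 44.3% on the Vector array, with 37.9% to 42.8% on the other 4, and the part of this in the differences was not tested. Basal epithelial keratins marked both samples: the log2 value of KRT5 was 14.30 on the DHA array and 13.83 on the Vector array, and that of KRT14 was 13.79 on the DHA array and 13.26 on the Vector array. Luminal markers were also present: KRT8 read 9.22 on the DHA array and 10.22 on the Vector array. KRT18 read 7.64 on the DHA array and 7.43 on the Vector array, and MUC1 read 8.41 and 10.61. The luminal keratin gene KRT19 was not above background on either array. Of 26 leukocyte genes, 10 were above background on the DHA array and 10 on the Vector array, with a log2 summed signal of 11.46 on the DHA array and 11.64 on the Vector array. The LYN kinase gene, which epithelial cells also express, was the highest of them on both, while the pan-leukocyte gene PTPRC and the T cell gene CD3E were not above background on either array.

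Cells that pass from G2 into mitosis transcribe a common set of genes whose promoters often carry a CHR element (cell cycle genes homology region) and CCAAT boxes, while genes of DNA replication peak earlier, in S phase. Epithelial cells also hold inducible defense programs: NF-kB drives chemokine, cytokine and acute phase genes through kappaB sites, and interferons drive antiviral and antigen presentation genes through the ISRE (interferon-stimulated response element). Polyunsaturated fatty acids are ligands of PPAR receptors and repress SREBP processing, so genes of lipid use and lipid synthesis are the usual readouts of fatty acid supply.

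Promoter sequences of genes at the head of 3 of these programs are shown first, since many members of each read low with DHA and many share a promoter element. For each list, the 2 genes with the largest reduction that hold the element are given, from 250 bases before to 50 bases after the annotated start, read from RefSeq promoters on GRCh38.p14 with the gene's strand written 5′ to 3′. Capitals mark the element on either strand. In the mitosis genes HMMR (chr5:163460382-163460681, plus strand), which encodes a hyaluronan receptor that acts at the spindle, and TOP2A (chr17:40417847-40418146, minus strand), DNA topoisomerase II alpha, they mark CHR (TTTGAA) and CCAAT.
HMMR: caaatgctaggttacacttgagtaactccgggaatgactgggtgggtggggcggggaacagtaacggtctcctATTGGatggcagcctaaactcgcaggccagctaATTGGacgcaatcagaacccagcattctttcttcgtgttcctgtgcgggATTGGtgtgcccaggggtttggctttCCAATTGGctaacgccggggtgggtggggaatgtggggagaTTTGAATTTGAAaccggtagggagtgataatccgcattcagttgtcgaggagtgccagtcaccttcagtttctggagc
TOP2A: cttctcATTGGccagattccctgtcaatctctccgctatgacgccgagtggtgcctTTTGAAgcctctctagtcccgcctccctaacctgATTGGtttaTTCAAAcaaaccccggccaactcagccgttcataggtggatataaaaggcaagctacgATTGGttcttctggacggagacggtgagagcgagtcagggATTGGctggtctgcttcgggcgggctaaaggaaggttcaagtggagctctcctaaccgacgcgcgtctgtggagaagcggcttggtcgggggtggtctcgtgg
HMMR held 2 CHR matches, which adjoin each other, and 5 CCAAT matches, of which a pair overlaps, and TOP2A held 2 CHR and 4 CCAAT matches.

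In the antiviral genes MX1 (chr21:41420308-41420607, plus strand), a GTPase that blocks viral replication, and IFI44 (chr1:78649539-78649838, plus strand), an interferon-induced gene, the capitals mark the ISRE core GAAANNGAA, with 2 overlapping matches in MX1 and 1 match in IFI44.
MX1: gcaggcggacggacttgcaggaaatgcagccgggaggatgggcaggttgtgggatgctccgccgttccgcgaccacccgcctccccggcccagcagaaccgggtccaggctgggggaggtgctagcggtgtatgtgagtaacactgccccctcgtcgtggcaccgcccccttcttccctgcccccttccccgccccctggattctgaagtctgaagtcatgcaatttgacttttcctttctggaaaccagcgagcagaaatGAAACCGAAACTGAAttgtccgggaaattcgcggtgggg
IFI44: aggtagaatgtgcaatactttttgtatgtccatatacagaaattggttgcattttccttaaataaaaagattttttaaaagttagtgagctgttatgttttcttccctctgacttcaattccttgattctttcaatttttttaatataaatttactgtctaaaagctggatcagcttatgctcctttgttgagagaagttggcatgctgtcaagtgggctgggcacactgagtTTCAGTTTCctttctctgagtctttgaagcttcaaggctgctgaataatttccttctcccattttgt
In the chemokine genes CXCL1 (chr4:73869143-73869442, plus strand), which attracts neutrophils, and CCL20 (chr2:227813592-227813891, plus strand), the ligand of CCR6, the capitals mark the kappaB consensus, which in CXCL1 matches on both strands at overlapping positions.
CXCL1: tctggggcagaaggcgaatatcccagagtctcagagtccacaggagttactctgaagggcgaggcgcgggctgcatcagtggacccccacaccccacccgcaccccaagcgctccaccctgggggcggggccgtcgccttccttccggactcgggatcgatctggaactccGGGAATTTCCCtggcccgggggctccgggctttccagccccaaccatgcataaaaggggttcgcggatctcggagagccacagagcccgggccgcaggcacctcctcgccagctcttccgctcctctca
CCL20: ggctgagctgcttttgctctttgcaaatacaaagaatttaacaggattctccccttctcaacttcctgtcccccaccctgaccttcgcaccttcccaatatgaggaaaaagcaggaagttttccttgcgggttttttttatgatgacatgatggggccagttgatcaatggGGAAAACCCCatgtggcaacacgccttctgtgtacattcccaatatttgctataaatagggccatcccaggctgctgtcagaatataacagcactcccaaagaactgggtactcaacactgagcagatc
Of 27305 promoters of this length, 15.4% held CHR, 35.7% held CCAAT, 6.08% held both, 8.29% held the ISRE core and 5.72% held the kappaB consensus. Of the 50 mitosis genes, 42 were matched to a promoter and 30 of these (71.4%) held CHR, 25 of them with CCAAT, whereas 1 of 44 promoters of DNA replication genes (2.27%) held CHR. The ISRE core was in 26 of 41 promoters of interferon-stimulated genes (63.4%), and the kappaB consensus was in 9 of 15 chemokine promoters (60.0%) and in 8 of 21 promoters of NF-kB subunit and feedback genes (38.1%). A match describes these letters in this window and does not show that a factor binds there. The shares are over whole lists chosen by gene function. Members that read low with DHA were not set against the others, so the shares do not bear on the DHA difference.

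Between the DHA and Vector arrays, 12856 of 20046 genes could be compared, those above background on at least 1 of the 2. Of these, 36 (0.28%) were higher with DHA by 2-fold or more, and 158 (1.23%) were lower by as much. The central 95% of log2 differences lay between -0.71 and 0.59, around a median of -0.001. When restored signals were scaled to a common median instead of quantile normalized, the median of all genes shifted to -0.18, and 15 genes were higher and 311 lower. Genes higher with DHA were 18.6% of calls in the quantile normalized values and 4.60% after this scaling. Because the scaling moved the differences down as a whole, it favors lower genes and is no check on their excess. Of the 158 lower genes, 53 have another probe above background, which was below 0 for 50 of them and at least 2-fold lower for 21. Of the 36 higher genes, 12 have another probe, which was above 0 for 11 and at least 2-fold higher for 3.

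Of 123 compared genes in 3 cell cycle lists, 26 were at least 2-fold lower and 1 higher, and of 145 in 6 immune lists, 56 were lower and 1 higher. Of 137 lipid genes in 5 lists, 1 was lower and none higher. Of 151 differentiation genes in 6 lists, 7 were lower and 5 higher. In all, 90 of the 158 lower genes and 7 of the 36 higher genes are in one of the 25 lists, and 68 of the lower genes are in none.

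**Figure D1:**
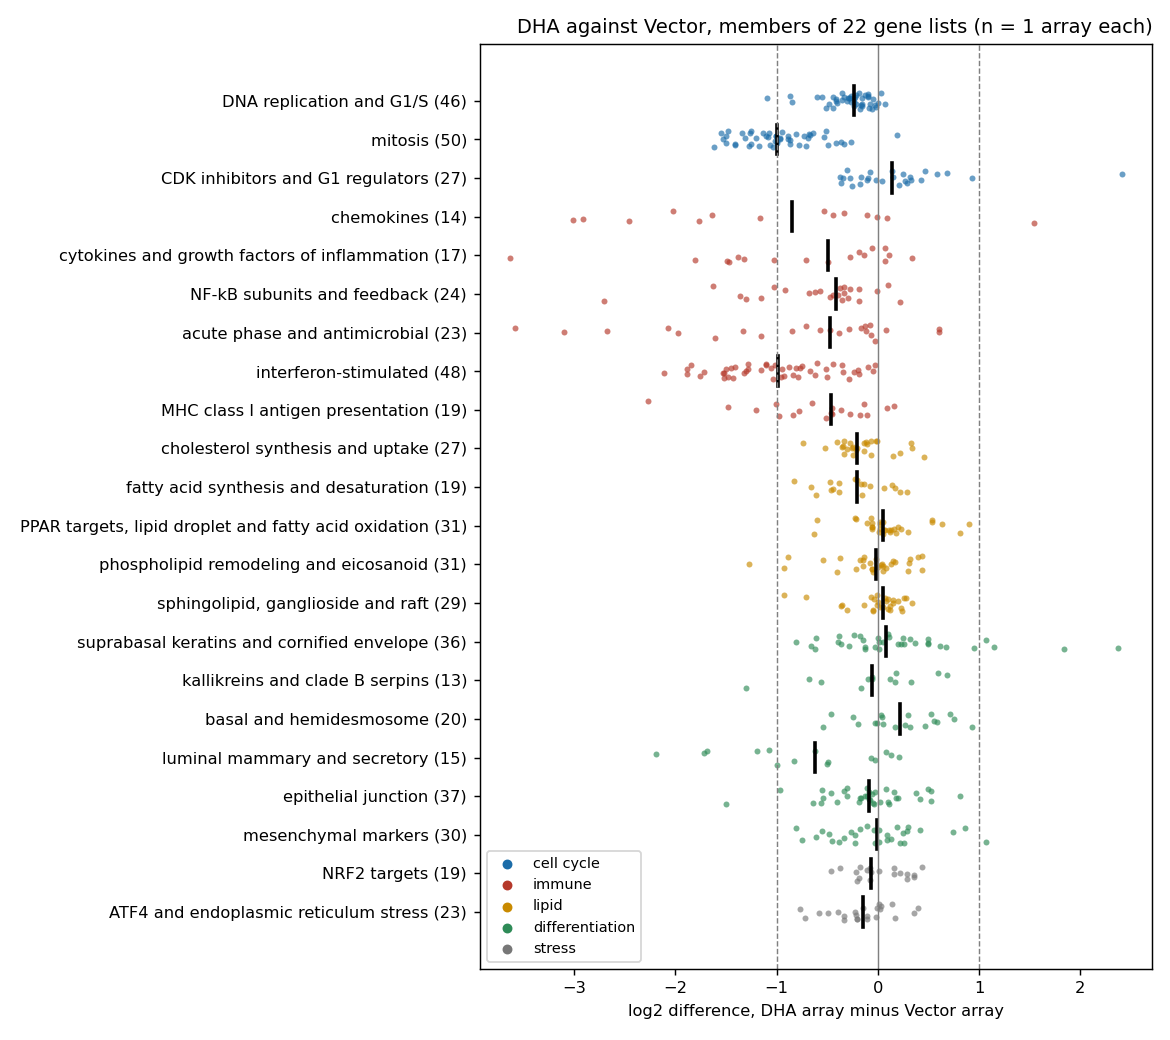
The log2 difference (horizontal axis, DHA array minus Vector array) of each compared member of 22 gene lists (rows, number of members in parentheses), with black bars for list medians and dashed lines at a 2-fold difference. Mitosis and interferon-stimulated genes lie farthest to the left as groups, with medians of -0.997 and -0.986, while the medians of the 5 lipid lists lie between -0.21 and 0.05.

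Genes of mitosis read low with DHA almost without exception. All 50 of the list were compared, 25 were at least 2-fold lower and none higher, 49 were below 0, and the list median was -0.997. HMMR had a log2 value of 8.11 on the DHA array and 9.72 on the Vector array, a difference of -1.62 (3.07-fold lower), and it read 9.78 to 9.92 on the 4 induced arrays. TOP2A, which untangles DNA and is at its peak in G2, read 9.83 with DHA and 11.38 with Vector, a difference of -1.55, and 11.02 to 11.87 on the induced arrays. NUSAP1, a spindle microtubule protein, read 9.07 with DHA and 10.60 with Vector, a difference of -1.53, and 10.57 to 10.86 on the induced arrays. In each of these 3 genes the DHA array was the one that stood apart, more than 1 log2 unit below the other 5.

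The same held across the list. The DHA array was the lowest of the 6 for 49 of the 50 genes, against 12.2% of all genes compared, and the Vector array was the highest for 1, against 13.4%. Cyclin genes shared the pattern: CCNB1, the cyclin of mitotic entry, read 8.63 with DHA and 9.89 with Vector (difference -1.27), and CCNA2, the cyclin of S phase and G2, read 8.06 with DHA and 9.20 with Vector (difference -1.14). FOXM1, a transcription factor of G2 genes, lay just inside the 2-fold line and CDK1, the kinase of mitotic entry, just outside it, at -1.001 and -0.992. Spindle and checkpoint kinases read lower too, with -1.26 for AURKA, -1.31 for TTK and -1.25 for BUB1. PLK1 had a difference of -0.41, and MKI67, the proliferation antigen Ki-67, was near the detection floor of this array and not above background with DHA, so its level could be compared only as a bound. BUB3, a checkpoint protein, was the 1 member above 0, at 0.19, but it came to -0.16 after common-median scaling and its other probe gave -0.21.

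Genes of DNA replication and the G1/S transition shared the sign, with smaller differences. Of 46 compared, 44 were below 0, with a median of -0.23, and the DHA array was the lowest of the 6 for 19. After common-median scaling the median was -0.53 and 2 genes were at least 2-fold lower. TK1, thymidine kinase, was the 1 member at least 2-fold lower: it read 8.22 with DHA and 9.31 with Vector, a difference of -1.09, and 9.31 to 9.84 on the induced arrays. EXO1, a DNA repair exonuclease, and GINS4, a subunit of the replicative helicase, followed at -0.87 and -0.85. The licensing helicase genes MCM2, MCM4 and MCM5 differed by -0.09, -0.09 and -0.05, and PCNA, the sliding clamp, by -0.35. By median the difference was smaller here than in the mitosis list, with no test of the contrast.

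Among 27 CDK inhibitors and G1 regulators, 1 gene was at least 2-fold higher and none lower, with a median of 0.14, which was -0.10 after common-median scaling. RGCC, a regulator of cell cycle and a p53 target, had the largest difference of all genes higher with DHA: it read 9.50 with DHA and 7.09 with Vector, a difference of 2.41 (5.32-fold higher). On the induced arrays it read 9.29 with Snail+DHA, 11.09 with Snail, 8.46 with TGF-β+DHA and 7.55 with TGF-β, so the Vector array was the lowest of the 6. MYC, a growth transcription factor, read 12.39 with DHA and 11.45 with Vector (0.93), and CCND1, cyclin D1, read 11.47 with DHA and 10.78 with Vector (0.69), in both cases the highest value of the 6. The CDK inhibitors CDKN1B and CDKN1C differed by -0.37 and -0.35.

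**Figure D2:**
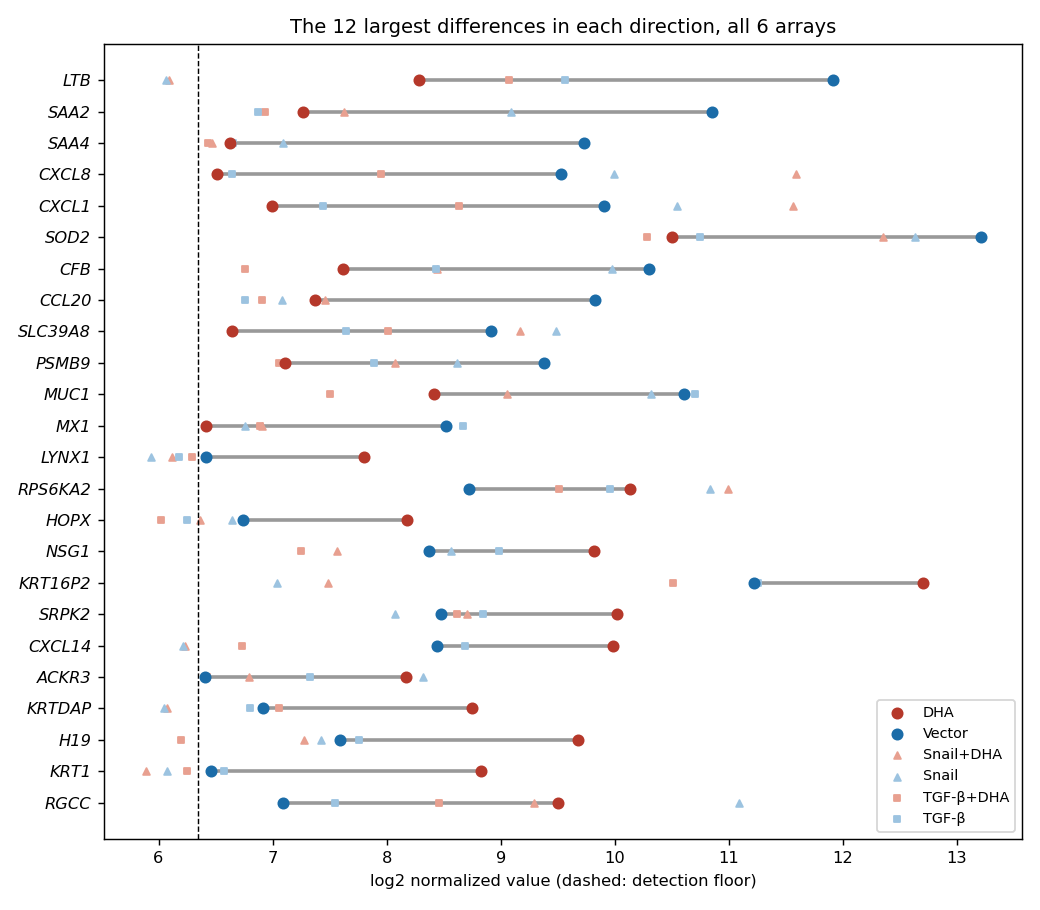
Log2 normalized values (horizontal axis) of the 12 genes with the largest difference in each direction, with large circles for DHA and Vector, triangles for the Snail pair and squares for the TGF-β pair. LTB reads 8.28 with DHA and 11.91 with Vector, CXCL8 is lowest on the DHA array, and KRT1 and H19 are highest on it.

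Chemokine genes held some of the largest reductions. Of 14 compared, 7 were at least 2-fold lower and 1 higher, with a median of -0.85, which was -1.58 after common-median scaling and -0.36 with no filter on dim probes. CXCL8 (interleukin 8), a neutrophil attractant, read 6.52 with DHA, close to the detection floor of 6.35, and 9.53 with Vector, a difference of -3.01 (8.06-fold lower), and another probe of it gave -1.13. CXCL1 read 6.99 with DHA and 9.90 with Vector, a difference of -2.91. These are neighbors in the chemokine cluster of chromosome 4, and the DHA array was the lowest of the 6 for both.

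On the induced arrays the same genes were higher with DHA. CXCL8 read 11.59 with Snail+DHA and 9.99 with Snail, and 7.95 with TGF-β+DHA and 6.65 with TGF-β. CXCL1 read 11.56 with Snail+DHA and 10.55 with Snail, and 8.64 with TGF-β+DHA and 7.44 with TGF-β. Both genes thus differed in opposite directions with DHA in uninduced and in induced cells, a contrast for which no test is possible.

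For the other chemokines the Vector array was more often the one apart. CCL20 read 7.37 with DHA and 9.83 with Vector, a difference of -2.46, and 6.76 to 7.46 on the induced arrays. CCL5, a T cell attractant, read 7.68 with DHA and 9.70 with Vector, a difference of -2.02, and 7.32 to 8.50 on the induced arrays. For both, the DHA value lay within the range of the induced arrays and the Vector value above it. CXCL10, which interferon induces, was not above background with DHA and was at least 3.12-fold lower than on the Vector array. CXCL14, a chemokine of resting epithelium, was the exception in direction: it read 9.99 with DHA and 8.44 with Vector, a difference of 1.55, the highest value of the 6.

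Cytokine genes showed the same form. Of 17 compared, 7 were at least 2-fold lower and none higher, with a median of -0.49 (-0.91 after common-median scaling and -0.24 with no filter on dim probes). LTB, the TNF family member lymphotoxin beta, had the largest reduction of all genes: it read 8.28 with DHA and 11.91 with Vector, a difference of -3.63 (12.4-fold lower), with -3.17 at another probe. It read 9.08 with TGF-β+DHA and 9.56 with TGF-β, and was not above background on either Snail array. IL32, an inflammatory cytokine, differed by -1.81, IL1B by -1.49 and TNF by -1.32. IL1A and IL18, the epithelial alarmins, differed by -0.49 and 0.07, inside the central 95% of all genes, and IL18 came to -0.06 after common-median scaling.

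Of 24 NF-kB subunit and feedback genes, 6 were at least 2-fold lower and none higher, with a median of -0.42 (-0.64 after common-median scaling). SOD2, mitochondrial superoxide dismutase and an NF-kB target, read 10.50 with DHA and 13.21 with Vector, a difference of -2.71, with -2.60 at another probe. It read 12.35 with Snail+DHA and 12.63 with Snail, and 10.29 with TGF-β+DHA and 10.75 with TGF-β. TNFAIP3 (A20) and NFKBIA (the inhibitor of kappaB alpha), feedback inhibitors that NF-kB itself induces, differed by -1.63 and -1.03, and the Vector array was the highest of the 6 for both. The subunit gene RELA differed by 0.10 (-0.02 after common-median scaling).

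Acute phase and antimicrobial genes were low in 8 of 23, with none at least 2-fold higher and a median of -0.48 (-0.23 with no filter on dim probes). The serum amyloid genes SAA2, SAA4 and SAA1 differed by -3.59, -3.10 and -1.98, although these genes are near-identical copies in part and their probes may share transcripts. CFB, complement factor B, read 7.62 with DHA and 10.30 with Vector, a difference of -2.68. LCN2, the iron-sequestering lipocalin, read 7.41 with DHA and 9.01 with Vector, a difference of -1.61, and 6.97 to 8.37 on the induced arrays. The Vector array was the highest of the 6 for 14 of the 23, against 13.4% of all genes, and the DHA array was the lowest for none. RNASE7, an antimicrobial ribonuclease, and LYZ, lysozyme, were above 0, each at 0.60.

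Interferon-stimulated genes were the largest immune group. Of 48 compared, 24 were at least 2-fold lower, none was higher, all 48 were below 0, and the median was -0.99. MX1 read 6.41 with DHA, close to the detection floor of 6.35, and 8.52 with Vector, a difference of -2.11 (4.31-fold lower). IFI44 read 7.41 with DHA and 9.30 with Vector, a difference of -1.89. IFIT1, which binds foreign RNA, read 6.90 with DHA and 8.79 with Vector, also a difference of -1.89, while another probe of it gave -0.23. ISG15, a ubiquitin-like modifier, read 9.83 with DHA and 11.35 with Vector, a difference of -1.52.

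These genes span the program from sensor to effector. The RNA sensor gene IFIH1 differed by -1.53, the transcription factor genes IRF1 and IRF9 by -1.06 and -1.04, the OAS enzyme gene OAS3 by -1.45, the guanylate-binding protein gene GBP1 by -1.76 and the membrane restriction factor gene IFITM1 by -1.84. Another probe of OAS3 gave -0.45. OAS2 was not above background with DHA and was at least 2.503-fold lower. RSAD2 and XAF1 differed by -0.05 and -0.03, the smallest differences in the list. The Vector array was the highest of the 6 for 29 of the 48 genes and the DHA array the lowest for 10, so for most of them the DHA value was not the lowest of the 6.

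The list medians of the interferon-stimulated genes were also below 0 in the induced pairs, and closer to 0. The median was -0.12 for Snail+DHA against Snail, with 2 genes at least 2-fold lower and 1 higher (IFI44, at 1.03), and -0.65 for TGF-β+DHA against TGF-β, with 11 lower and none higher. MX1 read 6.89 with TGF-β+DHA and 8.67 with TGF-β, a difference of -1.78, and 6.91 with Snail+DHA and 6.76 with Snail. In all 3 pairs, 25 of the 48 genes were below 0.

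Genes of MHC class I antigen presentation were lower in 4 of 19, with a median of -0.46 (-0.74 after common-median scaling, with 6 lower). PSMB9, an immunoproteasome subunit, read 7.11 with DHA and 9.38 with Vector, a difference of -2.27, but another probe gave -0.58. HLA-B and HLA-F differed by -1.48 and -1.20, with the reservation that HLA genes are close copies that probes may not separate, and HLA-F passed 2-fold with its brightest probe only, the other giving -0.68. B2M, the invariant light chain, read 13.22 with DHA and 13.99 with Vector (-0.78), and HLA-E was above 0, at 0.16 (-0.14 after common-median scaling). The Vector array was the highest of the 6 for 13 of the 19.

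**Figure D3:**
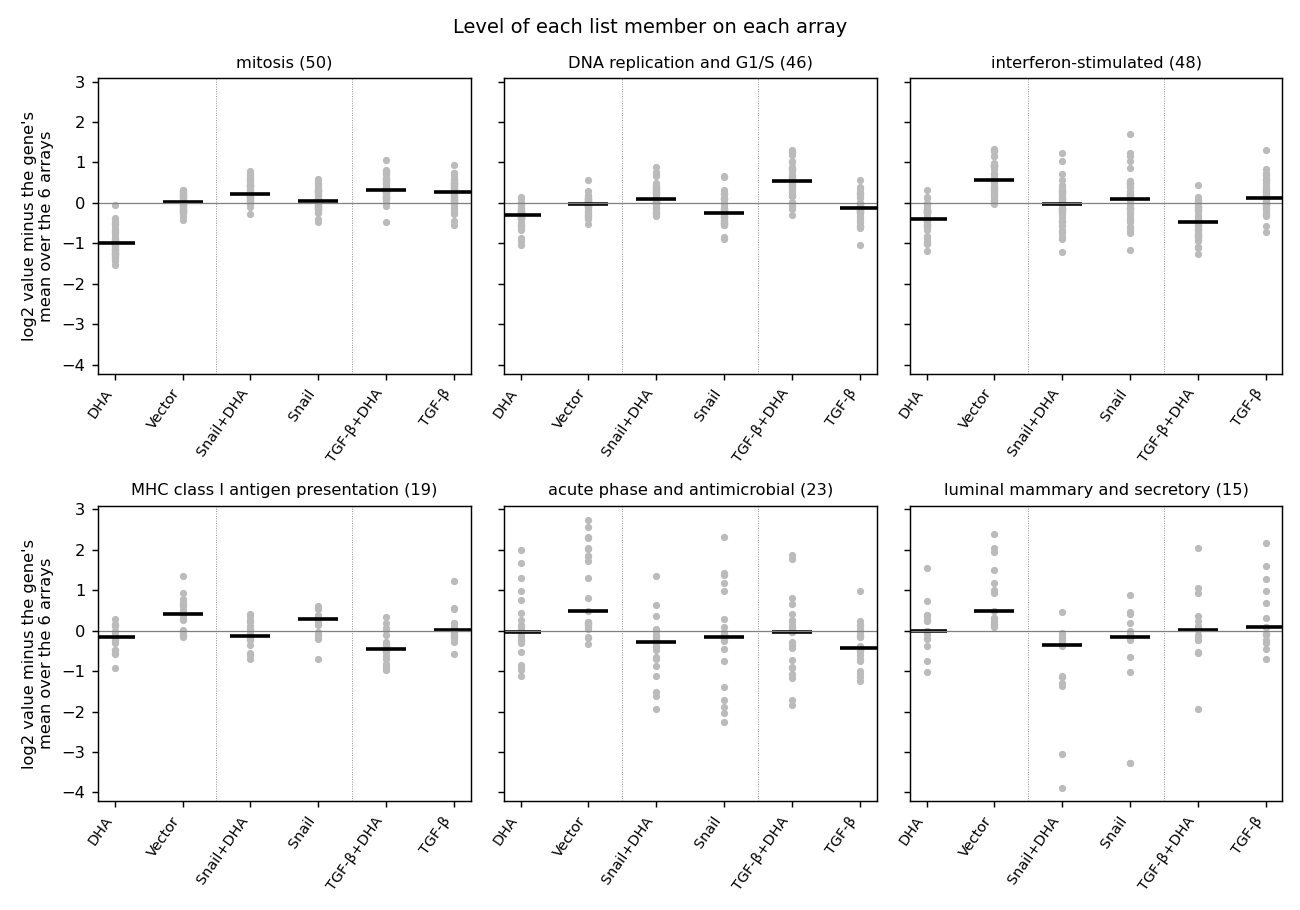
Each panel plots the members of a gene list (number in parentheses) on the 6 arrays, as the log2 value minus that gene's mean over the 6 arrays (vertical axis), with grey points for genes and black bars for medians. In the mitosis panel the DHA array lies below the other 5, while in the interferon-stimulated, acute phase and luminal panels the Vector array lies above the rest.

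The 158 lower genes were chosen for a DHA value below the Vector value. This choice by itself favors a lowest DHA array or a highest Vector array. Their positions among the 6 arrays are therefore given as description, with no test. The DHA array was the lowest of the 6 for 72 of the 158 and the Vector array the highest for 79. Both held for 15 and neither for 22. Over all genes compared, without such a choice, the DHA array was the lowest for 12.2% and the Vector array the highest for 13.4%. Of the 26 lower cell cycle genes, the DHA array was the lowest for 26 and the Vector array the highest for none, and of the 56 lower immune genes, the DHA array was the lowest for 9 and the Vector array the highest for 42. The 36 higher genes were likewise chosen for a DHA value above the Vector value. The DHA array was the highest of the 6 for 23 of them, and the Vector array the lowest for 6. The matching shares over all genes were not counted, so these 2 counts describe the 36 genes only.

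Of 137 lipid genes compared, 1 was at least 2-fold lower and none higher. This is near the shares over all genes, of which 1.23% were lower and 0.28% higher. Of 31 compared PPAR targets and genes of lipid droplets and fatty acid oxidation, none was 2-fold higher or lower, and the median was 0.05 (-0.13 after common-median scaling). ANGPTL4, a lipase inhibitor and a strong PPAR target, read 7.19 with DHA and 6.90 with Vector, a difference of 0.30. On the induced arrays it read 11.39 with Snail+DHA and 6.79 with Snail, a difference of 4.60, and 9.17 with TGF-β+DHA and 6.86 with TGF-β, a difference of 2.32. ANGPTL4 is outside the rule for named genes and was chosen after its values were seen.

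FABP5, a fatty acid carrier, had the largest difference of the list in uninduced cells, at 11.52 with DHA and 10.62 with Vector (0.90, with 0.23 at another probe). Its differences were 1.94 in Snail cells and 2.12 in TGF-β cells. HADHA, the trifunctional enzyme of beta-oxidation, differed by 0.63 and the acyl-CoA ligase genes ACSL1 and ACSL4 by -0.63 and -0.60. The oxidation gene CPT1A differed by 0.02.

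Sterol and fatty acid synthesis genes were mostly below 0, and whether any passed 2-fold depended on the scaling. Of 27 cholesterol genes 22 were below 0, with a median of -0.21, and of 19 fatty acid synthesis genes 14 were below 0, with a median of -0.20, and none of either list passed 2-fold. After common-median scaling the medians were -0.47 and -0.48, and 1 gene of each list was at least 2-fold lower. INSIG1, a sterol-responsive SREBP regulator, read 9.12 with DHA and 9.86 with Vector, a difference of -0.74 (-1.09 after common-median scaling). Another probe of INSIG1 gave -0.18. SREBF1, which encodes SREBP-1, differed by -0.61, with -0.27 at another probe. FADS1, the delta-5 desaturase of polyunsaturated fatty acid synthesis, read 8.66 with DHA and 9.49 with Vector, a difference of -0.83 (-1.19 after common-median scaling). The DHA value of FADS1 was the lowest of the 6.

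Of 31 genes of phospholipid remodeling and eicosanoid synthesis, 1 was lower and none higher, with a median of -0.02 (-0.19 after common-median scaling, with 3 lower). The gene lower in the quantile normalized values was CYP1B1, a cytochrome P450 that oxidizes estrogens and arachidonic acid, which read 7.79 with DHA and 9.06 with Vector, a difference of -1.27. LPCAT3, which places polyunsaturated chains into phospholipids, differed by 0.40. Among 29 sphingolipid, ganglioside and raft genes none passed 2-fold, with a median of 0.05 (-0.17 after common-median scaling, with 2 lower). SGPP2, a sphingosine-1-phosphate phosphatase, and MAL2, a raft protein of apical transport, had the largest reductions, at -0.93 and -0.71 (-1.21 and -1.04 after common-median scaling), and the glucosylceramide synthase gene UGCG differed by 0.27 (-0.06 after common-median scaling).

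Differentiation genes moved in both directions. Of 36 suprabasal keratin and cornified envelope genes, 4 were at least 2-fold higher and none lower, with a median of 0.08 (-0.03 after common-median scaling). KRT1, the keratin of the first suprabasal layer of epidermis, read 8.83 with DHA and 6.46 with Vector, a difference of 2.37 (5.17-fold higher). The Vector value was close to the detection floor of 6.35. On the induced arrays KRT1 read 6.57 with TGF-β and was not above background on the other 3. KRTDAP, a secreted protein of differentiating keratinocytes, read 8.75 with DHA and 6.91 with Vector, a difference of 1.83. SBSN and SPRR1A, of the suprabasal layers and the cornified envelope, differed by 1.15 and 1.07. After common-median scaling SBSN came to 0.87, and KRT1 and KRTDAP were the 2 genes of the list still at least 2-fold higher. The DHA array was the highest of the 6 for KRT1, KRTDAP, SBSN and SPRR1A.

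The list as a whole went both ways, with 22 of the 36 genes above 0 and 14 below. The envelope gene LCE3D and the keratin gene KRT10 differed by 0.95 and 0.67, while other members were below 0. The transglutaminase gene TGM1 differed by -0.39, the envelope gene PPL by -0.36, the keratin genes KRT13 and KRT80 by -0.62 and -0.66, and CALML5, a calcium-binding protein of the upper epidermis, by -0.81. Of 13 kallikreins and clade B serpins, 1 was lower and none higher: SERPINB1, an inhibitor of neutrophil proteases, read 7.79 with DHA and 9.09 with Vector, a difference of -1.30. KLK7 and KLK11 differed by -0.68 and 0.59. Another probe gave 0.01 for KLK7, -0.05 for KLK11 and -0.06 for KRT80.

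Genes of luminal mammary and secretory cells were lower in 5 of 15, with none higher and a median of -0.62, which was -0.90 after common-median scaling and -0.07 with no filter on dim probes, while 5 to 7 genes were lower under these settings. MUC1, the transmembrane mucin of apical surfaces, read 8.41 with DHA and 10.61 with Vector, a difference of -2.19 (4.57-fold lower), with -2.16 at another probe. It was also low with DHA in the induced pairs, at 9.05 with Snail+DHA and 10.32 with Snail, and at 7.51 with TGF-β+DHA and 10.70 with TGF-β. All 3 arrays of DHA-treated cells thus read below all 3 without it. ALDH1A3, a retinaldehyde dehydrogenase, read 8.43 with DHA and 10.15 with Vector, a difference of -1.72, with -1.57 at another probe. WFDC2, a secreted whey acidic protein, was not above background with DHA and was at least 3.22-fold lower. EPCAM differed by -1.19 and KRT7 by -1.07, and KRT8 lay just outside 2-fold, at -0.996.

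Of 20 basal and hemidesmosome genes, none passed 2-fold and 14 were above 0, with a median of 0.22 (0.02 after common-median scaling). For a set of 20, none is near the shares over all genes, of which 1.23% were lower and 0.28% higher. TAGLN, an actin-binding protein of contractile cells, and ITGA3, an integrin of laminin adhesion, had the largest differences, at 0.93 and 0.75. The Vector array was the lowest of the 6 for both, and another probe of ITGA3 gave 0.02. DST, which links keratin to hemidesmosomes, read 9.95 with DHA and 9.24 with Vector (0.71, with 0.11 at another probe). CDH3 and CD9 differed by -0.46 and -0.54, and another probe of CD9 gave -0.10.

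Of the epithelial junction and mesenchymal lists, CLDN7 and CCN1 were the members past 2-fold in uninduced cells, and the epithelial marker EPCAM, counted above with luminal genes, was 2.28-fold lower. CDH1 (E-cadherin) read 11.15 with DHA and 11.46 with Vector, a difference of -0.31, and CLDN1 (claudin 1) read 11.11 with DHA and 11.75 with Vector, a difference of -0.64. CLDN7, another claudin, read 6.42 with DHA, close to the detection floor of 6.35, and 7.92 with Vector, 2.82-fold lower. It was the 1 of 37 epithelial junction genes past 2-fold. OVOL2, an epithelial transcription factor, differed by 0.81.

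On the mesenchymal side, CDH2 (N-cadherin) read 7.04 with DHA and 7.65 with Vector, a difference of -0.61, and VIM (vimentin) read 12.03 with DHA and 11.62 with Vector, a difference of 0.42, with -0.15 at another probe. CCN1, a matricellular protein that YAP and serum induce, was the 1 of 30 mesenchymal genes past 2-fold, at 10.91 with DHA and 9.84 with Vector (1.07, and 0.78 after common-median scaling). The surface markers CD44 and CD24, which the study follows as stem cell markers, differed by 0.38 and -0.83, and CD24 came to -1.08 after common-median scaling. The list medians were -0.09 for epithelial junction genes and -0.01 for mesenchymal markers (-0.36 and -0.10 after common-median scaling, with 2 genes of each list at least 2-fold lower).

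Among the remaining genes higher with DHA, the imprinted noncoding RNA H19 read 9.68 with DHA and 7.59 with Vector, a difference of 2.09 (4.25-fold higher), the highest value of the 6. ACKR3, an atypical chemokine receptor, read 8.17 with DHA and 6.41 with Vector, close to the detection floor of 6.35, a difference of 1.77. Several others rested on 1 probe of their gene: SRPK2, HOPX and NSG1 differed by 1.54, 1.44 and 1.44 at the brightest probe and by 0.04, 0.08 and 0.39 at another. KRT16P2, a keratin pseudogene, differed by 1.49, at a probe that may also bind close copies. RPS6KA2, a ribosomal S6 kinase, and LYNX1, a modulator of acetylcholine receptors, differed by 1.42 and 1.38. The Vector value of LYNX1, 6.42, was also close to the floor. SLC39A8, a zinc importer that NF-kB induces, was the 1 gene among the 12 largest reductions that is in no list, at 6.64 with DHA and 8.92 with Vector (-2.27, with -1.44 at another probe).

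Set beside the induced pairs, the uninduced pair had the fewest genes past 2-fold. In Snail cells 150 genes were higher with DHA and 274 lower, of 12873 compared, and in TGF-β cells 245 were higher and 429 lower, of 12961. The 3 pairs share no array. Of the 158 genes lower in uninduced cells, 13 were also at least 2-fold lower and 8 were higher in Snail cells, and 18 were lower and 10 higher in TGF-β cells. Of the 36 higher genes, none was higher and 8 were lower in Snail cells, and 2 were higher and 9 lower in TGF-β cells. Over all genes compared, 1.17% were higher and 2.13% lower in Snail cells, and 1.89% higher and 3.31% lower in TGF-β cells. For a set of 36, none higher in Snail cells is near that share.

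Mitosis genes had medians of -0.997 in uninduced cells, 0.21 in Snail cells and 0.13 in TGF-β cells, and DNA replication genes had medians of -0.23, 0.35 and 0.73. Of the 46 DNA replication genes, 4 were at least 2-fold higher in Snail cells and 10 in TGF-β cells, with none lower. GINS2, of the replicative helicase, was past 2-fold in both and so above the medians. Its differences were -0.40 in uninduced cells, 1.13 in Snail cells and 1.56 in TGF-β cells. Targets of NRF2, the oxidative stress factor, had a median of -0.07 here, against 0.81 in Snail cells and 0.16 in TGF-β cells. HMOX1, heme oxygenase 1, differed by -0.17 in uninduced cells and by 2.29 in Snail cells, and TRIB3, an ATF4 target, by -0.15 and 1.35. In Snail cells 8 NRF2 targets and 8 ATF4 and endoplasmic reticulum stress genes were at least 2-fold higher, with none lower. In TGF-β cells 0 and 2 were higher, with 1 of each list lower. The ATF4 and endoplasmic reticulum stress median was -0.15 in uninduced cells, 0.43 in Snail cells and 0.007 in TGF-β cells. None of the 19 NRF2 targets and 23 ATF4 and endoplasmic reticulum stress genes compared in uninduced cells passed 2-fold. This is near the shares over all genes, of which 1.23% were lower and 0.28% higher. After common-median scaling, 2 of the ATF4 and endoplasmic reticulum stress genes were at least 2-fold lower.

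**Figure D4:**
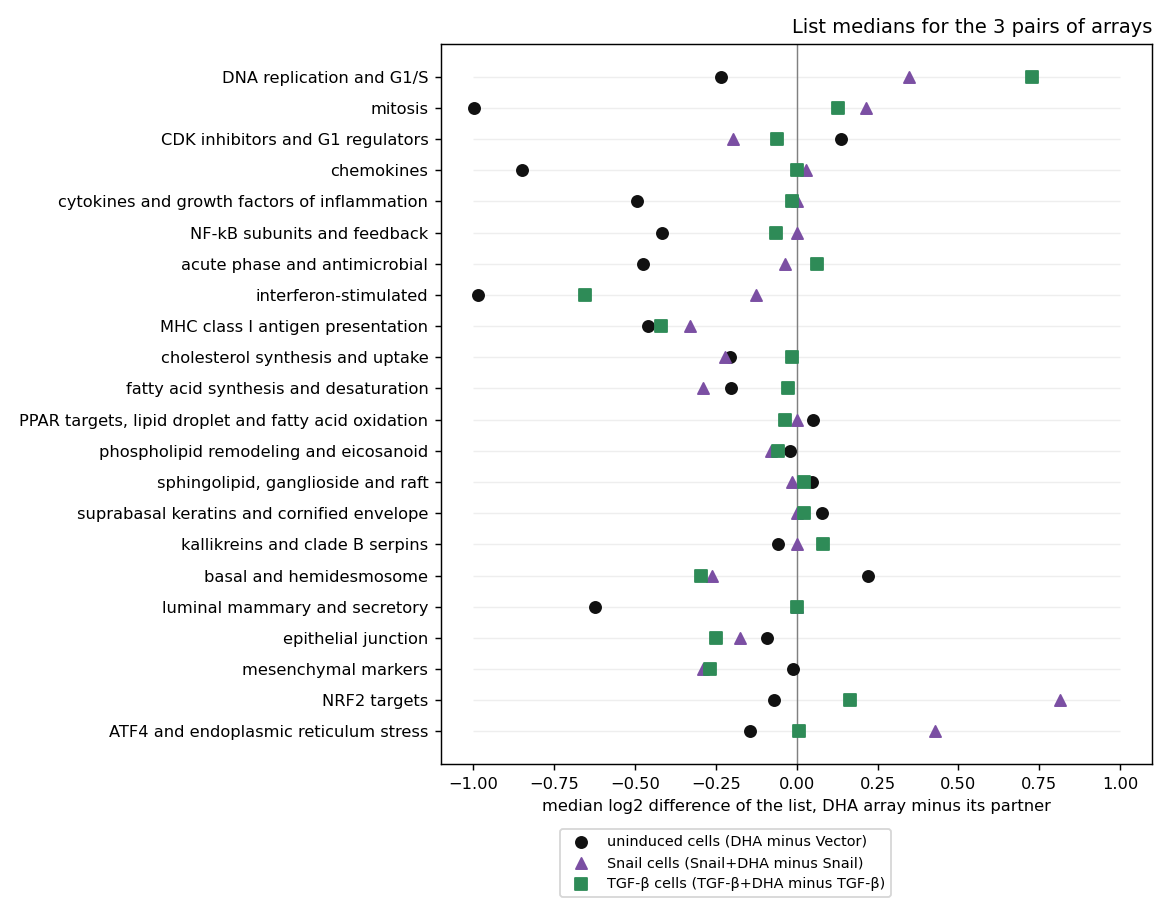
The median log2 difference of each gene list (horizontal axis) for the 3 pairs of arrays, each the DHA-treated array minus its partner: uninduced cells (circles), Snail cells (triangles) and TGF-β cells (squares). The medians of mitosis and DNA replication genes lie below 0 in uninduced cells, at -0.997 and -0.23, and above 0 in both induced pairs.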

How the data were processed

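RNA of 6 cultures was hybridized to Illumina HumanHT-12 v4 BeadChips. The authors deposited a table of intensity values for 47323 probes, not normalized, made with the IlluminaExpressionFileCreator module of GenePattern, and a table of log2 values that the authors had quantile normalized. The base of the deposited log2 values is inferred from their range. Values of the log2 table were used as deposited. The natural logarithm of the non-normalized intensities rose with the normalized log2 values at a slope of 0.962 to 1.04, so that logarithm was taken as the log2 signal for the alternatives. Neither table was read with detection p-values, so background was taken from the peak of low values and the spread below it, and a probe above it at p under 0.05 counted as detected. The floor this gives is a log2 value of 6.35. Values under it were raised to it, and such differences are given as "at least".

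Symbols come from the platform's gene table: 30113 probes have 1 gene, 8 several and 17202 none, and 20020 of 20046 genes are in the RefSeq gene table. Each gene was represented by its probe of highest mean over the 6 arrays. Another probe means the next brightest of the gene. Lists are described by counts past 2-fold and medians, with no test. The named genes are the 12 largest differences in each direction, the 3 largest in each direction of each list in the 4 main themes, and 6 markers that the study follows. Other genes are members of those lists, added as examples by role after their values were seen. The members and lists were chosen with earlier results of these data known. Work was done in Python 3.11.15 (pandas 2.3.3, numpy 2.4.6, matplotlib 3.10.9) and R 4.3.3 (limma 3.58.1), and the count of genes past 2-fold was tested on simulated data. The alternatives are normexp with an offset of 50, common-median scaling, other detection filters, other probes per gene, and the non-normalized values read as linear. The number of arrays, 1 per condition, limits the precision.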

Additional observations from a re-analysis of the deposited data

Results flagged for a closer look

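CXCL8 and CXCL1 differed between uninduced and induced cells: with DHA they were lower in uninduced cells, with log2 differences of -3.01 and -2.91, and higher in both induced pairs, at 1.60 and 1.01 in Snail cells and at 1.31 and 1.20 in TGF-β cells. The median of the mitosis genes was -0.997 in uninduced cells and above 0 in both induced pairs, and that of the DNA replication and G1/S genes was -0.23 and likewise above 0 in both. The median of the basal and hemidesmosome genes was 0.22 in uninduced cells, against -0.26 in Snail cells and -0.29 in TGF-β cells. With 1 array per condition, none of these differences between cell states was tested.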

How the results depend on the processing

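Counts of genes past 2-fold changed by over 1.5 times under 2 of 9 alternatives. With common-median scaling 15 genes were higher and 311 lower, and with non-normalized values read as linear 180 were higher and 343 lower, against 36 and 158; the cause was not tested. Normexp gave 36 and 158. All 158 lower genes were still lower under common-median scaling, and 15 of the 36 higher genes still higher. That scaling moves differences down as a whole, so it is no check on the lower genes. Mitosis genes at least 2-fold lower numbered 21 to 36 over the alternatives other than the linear reading, and interferon-stimulated genes 22 to 32. Common-median scaling lowered every list median except that of the endothelial genes, and with the linear reading the mitosis and interferon-stimulated medians were -1.44 and -1.43. Of 43 named genes past 2-fold, 5 came within it under some alternative (SRPK2, HOPX, HLA-F, SBSN, CCN1) and none changed sign. No paired analysis was possible because the uninduced comparison has 1 array on each side; a fit over the 3 DHA pairs, which asks for a difference common to the 3 cell states, was not run. Probes near background limit what can be compared: 930 genes were above it on the DHA array only and 1007 on the Vector array only.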

Other observations

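Of the 158 lower genes, 68 are in no list. The following were chosen after their values were seen. ASPM, a spindle pole protein, read 8.26 with DHA and 9.88 with Vector, a difference of -1.62, CDKN3, a phosphatase of CDK2, read 9.04 with DHA and 10.61 with Vector (-1.57), and CEP55, which acts in abscission, read 7.78 with DHA and 9.18 with Vector (-1.40). For each of these 3 the DHA array was the lowest of the 6. CD70, a TNF family ligand, differed by -1.72, PLAUR, the urokinase receptor, by -1.28 (-1.19 at another probe), and MMP9, gelatinase B, was not above background with DHA and was at least 2.47-fold lower.

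MT1F, a metallothionein, differed by -1.40, and SLC39A14, a zinc and iron importer, by -1.06. Among the higher genes in no list, GPM6B, a membrane proteolipid, read 11.04 with DHA and 9.72 with Vector (1.31, and 1.46 at another probe), and PLTP, the phospholipid transfer protein, read 11.13 with DHA and 10.06 with Vector (1.08, and 1.17 at another probe). Both were lower with DHA in the induced pairs, by -1.62 and -0.84 in Snail cells and by -0.93 and -1.10 in TGF-β cells.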
